A study of Mus musculus with 9 samples.

Results

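The Slc25 genes encode the mitochondrial carriers, and 46 of them, 1 probe set each, were measured among 19938 genes in mouse liver. Members were taken by symbol alone (Slc25a followed by a number) from probe sets with exactly 1 gene symbol, and where a gene had several, the brightest by mean level over the 9 arrays was used. The study put liver RNA from 9 mice on Affymetrix gene arrays, 1 array per mouse, in 3 groups of 3: C57BL/6J wild-type mice, Clock-D19 mutant mice, and Clock-D19 mutants given a rescue of the liver clock. Rescue mice received 35 µg of a pLIVE plasmid carrying wild-type Clock by hydrodynamic injection into the tail vein in week 10. Hydrodynamic delivery is known to reach mainly hepatocytes, and the mutant allele stays in all cells of these mice. All mice, controls included, were on 45% high-fat food for 5 weeks from the age of 10 weeks, with lights on for 12 h a day, and were killed at zeitgeber time 10, that is 10 h after the lights came on. An injection of wild-type or mutant mice is not described in the labels, so plasmid and injection cannot be told apart in the rescue group. The comparisons ask which carrier genes differ in mutant liver at this hour and what they look like after Clock is supplied.

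Mitochondrial carriers are small proteins, most of them in the inner membrane of the mitochondrion, that swap metabolites, nucleotides, cofactors and ions between matrix and cytosol. In liver they join the compartments of the urea cycle, gluconeogenesis, fatty acid oxidation, lipid synthesis and heme synthesis, and they move ATP out of the matrix. CLOCK pairs with BMAL1 and activates genes through E-boxes in daytime. The Clock-D19 allele yields a protein that still pairs but activates poorly.

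Values are RMA levels on the log2 scale, so a difference of 1 is a 2-fold change. Differences are given with the standard error of the linear model (limma, n = 3 per group), and a gene was called at a Benjamini-Hochberg adjusted p under 0.05 over all 19938 genes. Precision is set by the small number of arrays: the standard error of a difference ran from 0.10 to 0.26 among the 46 genes. Clock itself was 9.97, 9.24 and 9.30 in wild type, 10.88, 9.89 and 10.55 in mutant and 10.33, 9.41 and 9.62 in rescue liver. It was called higher in mutant than in wild type (0.94 ± 0.26, limma adjusted p = 0.0266). Rescue minus mutant was -0.66 ± 0.26 (limma adjusted p = 0.168, not called). The Clock probe set does not separate the mutant from the plasmid transcript and checks no label. Hepatocyte markers were high on every array (mean of 12 measured markers 12.13 to 12.44). Levels of different probe sets are not comparable, so carriers were not ranked by level. As a guide to background, the 95th percentile of 1027 olfactory receptor genes was 5.84 in wild type and 5.91 in the other groups. Of the 46 carriers 38 lay above it in at least 1 group. The 8 that did not were Slc25a2, Slc25a24, Slc25a31, Slc25a33, Slc25a35, Slc25a41, Slc25a53 and Slc25a54, and RMA compresses differences at such levels.

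Mutant livers differed from wild-type livers in 13 carrier genes, of which 6 rose and 7 fell. The ADP/ATP translocase gene Slc25a4 fell 2.26-fold and was the 1 member past a 2-fold change. Carriers of dicarboxylates (Slc25a10), ornithine (Slc25a15), basic amino acids (Slc25a29) and glutamate (Slc25a22) rose, while the folate carrier Slc25a32 and the outer membrane protein Slc25a46 fell. The 13 called genes are 28.3% of the family, against 15.4% of all genes tested (6.37% higher and 9.02% lower). All genes include the olfactory receptor genes, and these shares were not matched for level. The difference was above 0 in 26 members and below 0 in 20, with a median of 0.08 over the family and 0.07 over all genes. The 3 mutant values lay outside the 3 wild-type values in 20 members, 12 above and 8 below (43.5%, against 35.7% of all genes, 20.3% above and 15.4% below), and in all 13 called ones. Two-sided unadjusted p was under 0.05 in 19 members. Leaving out wild type replicate 3 gave 6 calls (2 rose and 4 fell), leaving out Clock mutant replicate 2 gave 8 (3 and 5), and leaving out wild type replicate 1 gave 10 (7 and 3). With quantile normalization repeated, 8 rose and 6 fell. Without the dimmest 40% of genes, 9 rose and 7 fell among the 38 carriers left.

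**Figure D1:**
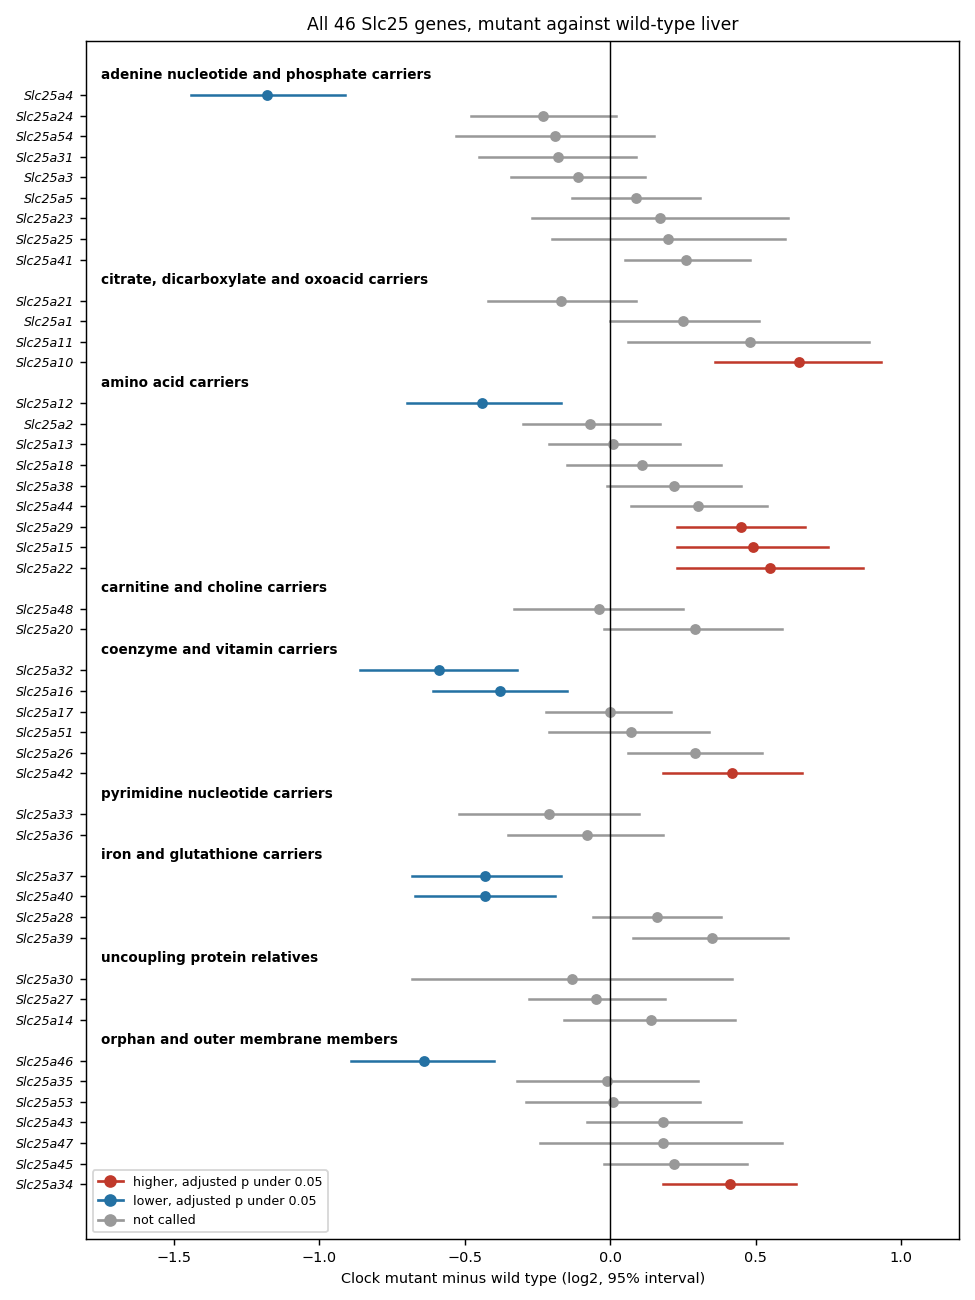
Each point is the Clock mutant minus wild-type difference (log2, horizontal axis) of 1 of the 46 Slc25 genes, with its unadjusted 95% interval, grouped by what the carrier moves; red and blue mark genes called higher and lower. Slc25a4 stands at -1.18, left of every other member, and the called rises end at 0.65 (Slc25a10).

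The adenine nucleotide and phosphate carriers exchange ADP for ATP and bring in phosphate for ATP synthase. Of 9 measured members 1 fell, none rose and 8 did not pass in mutant against wild-type liver (11.1% called, against 15.4% of all genes). Slc25a4, the ADP/ATP translocase isoform known from heart and skeletal muscle, was 8.33, 8.28 and 8.05 in wild type, 6.84, 7.05 and 7.23 in mutant and 7.55, 7.79 and 7.78 in rescue liver. The 3 groups did not overlap, with rescue between the others. Slc25a4 fell by 1.18 ± 0.13 in mutant against wild type (limma adjusted p = 5.83e-05), was 0.66 ± 0.13 higher in rescue than in mutant (adjusted p = 0.0131) and differed by -0.51 ± 0.13 between rescue and wild type (adjusted p = 0.0464). The first call held in each of 18 alternatives (differences from -1.29 to -1.08). The second was lost without Clock mutant replicate 1 (0.56, limma adjusted p = 0.0604) or Clock rescue replicate 2 (0.62, 0.0529) or 3 (0.63, 0.0554). The last was lost in 9 of 18 alternatives (adjusted p up to 0.166).

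Slc25a4 is also expressed outside hepatocytes, and in whole tissue fewer cells of a type and less RNA per cell cannot be told apart. Of 7 muscle markers, 5 lay above the olfactory range (not Tnnt1 and Actn3), and 1 rose in mutant against wild type (Tnnt3, 0.44). The mean level of the 7 was 5.72 to 5.88 in wild type, 5.98 to 6.15 in mutant and 5.73 to 5.90 in rescue liver. In wild type this mean was near the olfactory 95th percentile of 5.84, a level at which RMA compresses differences. The 7 mutant minus wild-type differences ran from -0.09 to 0.44, with 6 above 0, 1 below and a median of 0.27. In 6 of the 7 the mutant values lay above all wild-type values (20.3% of all genes). Rescue minus mutant was below 0 in all 7, with none called. Markers of other liver cells were followed as lists. Over all genes, 9.02% were called lower and 6.37% higher in mutant against wild type. In rescue, 2.61% were called higher than mutant and 1.35% lower than wild type. Of 13 endothelial markers 7 fell (53.8%) and none rose in mutant against wild type. In rescue 2 rose against mutant and 2 were lower than wild type. The mean level of the 13 was 7.85 to 7.99 in wild type, 7.30 to 7.38 in mutant and 7.49 to 7.82 in rescue. The list for Kupffer cells and macrophages held 9 falls among its 13 genes (69.2%) and no rise in mutant against wild type. In rescue 1 of them was called higher than mutant, and 6 were still called lower than wild type (46.2%). Mean levels over this list were 7.45 to 7.97 in wild type, 6.83 to 6.93 in mutant and 6.97 to 7.26 in rescue. Of 9 stellate cell markers 4 fell (44.4%) and none rose in mutant, and in rescue 3 rose against mutant and none was called against wild type. The 9 mutant minus wild-type differences ran from -0.86 to 0.20, with 2 above 0, 7 below and a median of -0.14. Means of the 9 were 7.83 to 7.99, 7.60 to 7.63 and 7.77 to 7.85 in wild type, mutant and rescue. All 13 endothelial and all 13 Kupffer cell markers, and 8 of the 9 stellate cell markers (not Des), lay above the olfactory range. The part of these cells in the change of Slc25a4, or of any other carrier that fell, was not tested.

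Other members of the same group stayed within narrower limits. The liver's other ADP/ATP translocase gene, Slc25a5, was 11.81, 11.74 and 11.65 in wild type and 11.84, 11.87 and 11.76 in mutant liver. Those groups overlapped, with a difference of 0.09 and a 95% interval of -0.13 to 0.31. Its 3 probe sets carry the same transcript accessions and may share signal with near-identical copies, and they gave 0.09, 0.06 and 0.05. The phosphate carrier gene Slc25a3, whose product supplies ATP synthase, was at -0.11 (interval -0.34 to 0.12). The ATP-Mg/phosphate carrier genes Slc25a23 and Slc25a25 were at 0.17 and 0.20, with wide intervals (-0.27 to 0.61 and -0.20 to 0.60). Slc25a41 (0.26), Slc25a31 (-0.18), known from testis, and Slc25a54 (-0.19) were dim and did not pass.

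Slc25a24, another ATP-Mg/phosphate carrier gene, was called in rescue against mutant liver. It was 5.44, 5.51 and 5.24 in wild type, 5.03, 5.08 and 5.38 in mutant and 5.69, 5.58 and 5.57 in rescue. The rescue values lay above those of both other groups, while mutant and wild type overlapped. Slc25a24 was 0.45 ± 0.12 higher in rescue than in mutant (limma adjusted p = 0.0488), a call lost in 10 of the 17 alternatives it entered (adjusted p 0.0269 to 0.148), among them each array left out except wild type replicate 3 and Clock mutant replicate 3. All of these levels were within the olfactory receptor range, so the size is uncertain.

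The carriers of citrate, dicarboxylates and oxoacids link the citric acid cycle to cytosolic synthesis. Of 4 measured members 1 rose in mutant liver and 3 did not pass (25.0% called, against 15.4% of all genes). Slc25a10, which exchanges malate and succinate for phosphate, was 7.27, 7.37 and 7.22 in wild type, 8.0, 7.97 and 7.83 in mutant and 7.35, 7.05 and 7.66 in rescue. All mutant arrays were above all others, and rescue overlapped with wild type. Slc25a10 rose by 0.65 ± 0.13 in mutant against wild type (limma adjusted p = 0.00511), fell by 0.58 ± 0.13 in rescue against mutant (adjusted p = 0.0318) and differed by 0.07 between rescue and wild type (95% interval -0.22 to 0.35). The first call held in all 18 alternatives. The second was lost in 8 of 18, among them the gene span trend removed (-0.51, adjusted p = 0.0526) and the arrays Clock rescue replicate 2 (-0.43, 0.102), Clock rescue replicate 1 (-0.58, 0.0657) and Clock mutant replicate 1 (-0.55, 0.1), 2 (-0.56, 0.0829) or 3 (-0.63, 0.0547) left out.

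The other carriers of this group were higher in mutant without a call, or lower. Slc25a11, which exchanges oxoglutarate for malate in the malate-aspartate shuttle, was at 0.48 ± 0.19 (limma adjusted p = 0.112), with overlapping values of 8.72, 8.14 and 8.38 in wild type and 9.15, 8.63 and 8.90 in mutant. The citrate carrier gene Slc25a1, a source of cytosolic acetyl-CoA for lipid synthesis, was at 0.25 ± 0.12 (adjusted p = 0.162). The oxoadipate carrier gene Slc25a21 was at -0.17 (interval -0.42 to 0.09).

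The amino acid carriers, together with the adenine nucleotide and phosphate carriers the largest group, held the most rises. Of 9 measured members 3 rose, 1 fell and 5 did not pass (44.4% called, against 15.4% of all genes). Slc25a15, the ornithine carrier of the urea cycle, was 9.88, 9.67 and 9.72 in wild type, 10.26, 10.32 and 10.15 in mutant and 9.95, 9.56 and 9.96 in rescue. Mutant stood above the other groups, which overlapped. Slc25a15 rose by 0.49 ± 0.12 (limma adjusted p = 0.0156), a call lost on leaving out Clock mutant replicate 2 (0.45, 0.0514) or wild type replicate 2 (0.44, 0.0549) or 3 (0.47, 0.058), and its difference between rescue and mutant was -0.42 ± 0.12 (adjusted p = 0.0698; called in 3 of 18 alternatives, among them quantile normalization repeated, 0.0412).

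Slc25a29, a carrier of basic amino acids, was 6.42, 6.25 and 6.22 in wild type, 6.73, 6.86 and 6.66 in mutant and 6.46, 6.42 and 6.47 in rescue. No mutant value overlapped with another group. It rose by 0.45 ± 0.10 (limma adjusted p = 0.00842, called in all 18 alternatives), and rescue minus mutant was -0.30 ± 0.10 (adjusted p = 0.114). The glutamate carrier gene Slc25a22 was 6.78, 6.73 and 6.26 in wild type, 6.98, 7.35 and 7.08 in mutant and 6.87, 6.72 and 7.06 in rescue. Wild type replicate 3 was the lowest of the 9 arrays, and the difference of 0.55 ± 0.15 (adjusted p = 0.0227) was not called without it (0.38, 0.109) or without Clock mutant replicate 2 (0.44, 0.0899).

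Both aspartate-glutamate carriers serve the malate-aspartate shuttle and their genes gave different readings. Slc25a12, the isoform of brain and muscle, was 8.20, 7.84 and 7.76 in wild type, 7.48, 7.60 and 7.40 in mutant and 7.78, 7.59 and 7.72 in rescue. Slc25a12 fell by 0.44 ± 0.12 (limma adjusted p = 0.0275; lost without wild type replicate 1, -0.31 and 0.118, or Clock mutant replicate 1, -0.43 and 0.0716, or 3, -0.39 and 0.09). Slc25a13, citrin, the liver isoform, was 9.95, 9.89 and 9.87 in wild type and 9.91, 9.93 and 9.90 in mutant liver. Its groups overlapped, with a difference of 0.01 and a 95% interval of -0.21 to 0.24; the contrast between the genes was not tested. The remaining members ran from Slc25a2 (-0.07), a second ornithine carrier, through the glutamate carrier Slc25a18 (0.11) and the glycine carrier Slc25a38 (0.22), needed for heme synthesis, to the branched-chain amino acid carrier Slc25a44 (0.30).

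**Figure D2:**
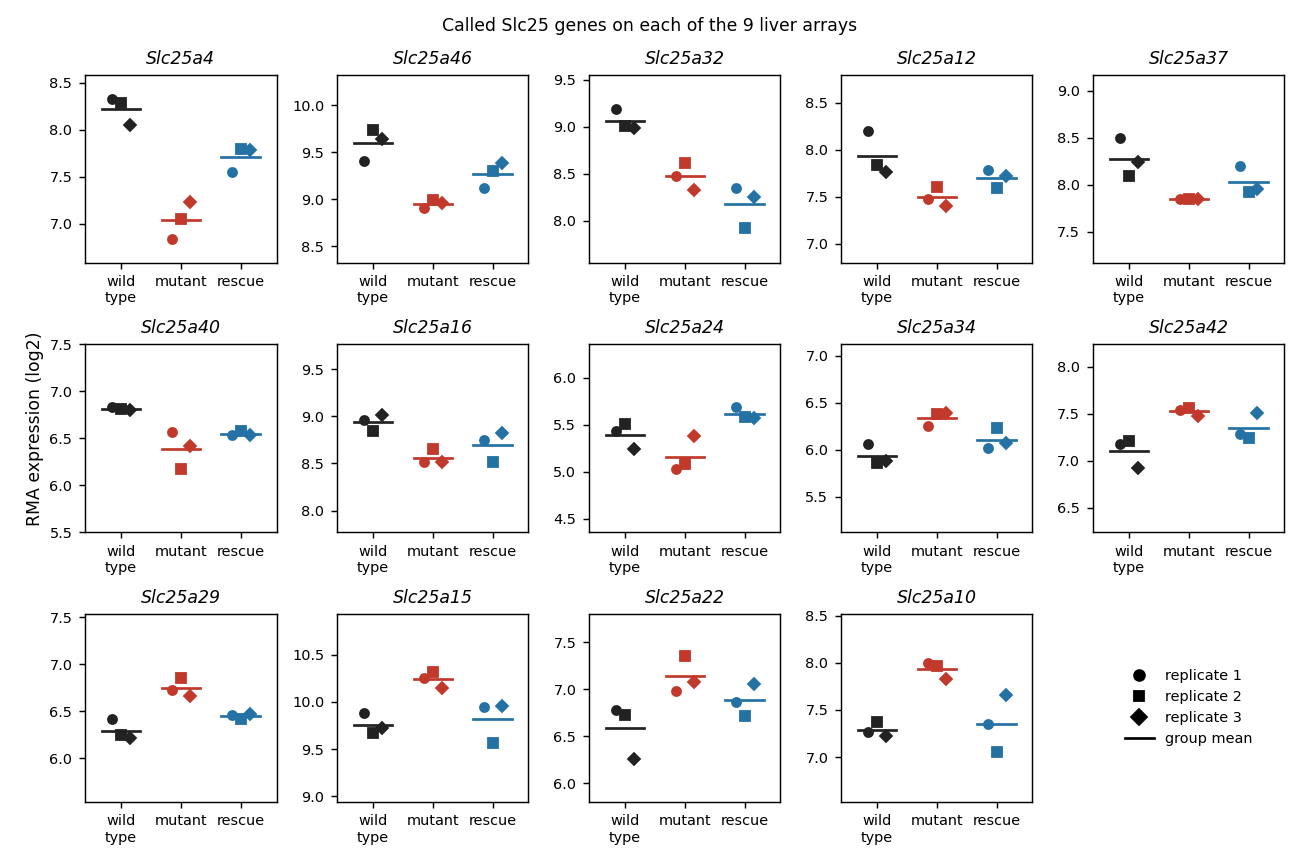
Log2 RMA levels (vertical axes, each 2 units tall) of the 14 Slc25 genes called in any comparison on the 9 arrays; symbols mark replicates, lines group means, colours wild type, Clock mutant and Clock rescue. No mutant point overlaps with wild type in 13 panels, those of genes chosen by their call in that comparison (35.7% of all genes do not overlap). In the Slc25a32 panel the rescue mean (8.17) lies under the mutant mean (8.47).

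Among 6 carriers of coenzymes and vitamins 1 rose, 2 fell and 3 did not pass, while 15.4% of all genes were called. Slc25a32, which brings folate into mitochondria and is also tied to their FAD supply, was 9.19, 9.01 and 8.99 in wild type, 8.48, 8.61 and 8.33 in mutant and 8.35, 7.92 and 8.25 in rescue. Mutant and rescue were both under all wild-type values and overlapped with each other. Slc25a32 fell by 0.59 ± 0.13 in mutant (limma adjusted p = 0.00581) and by 0.89 ± 0.13 in rescue (adjusted p = 0.00153) against wild type, both called in all 18 alternatives, and rescue minus mutant was -0.30 ± 0.13 (adjusted p = 0.193).

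Slc25a16, proposed to serve coenzyme A uptake, was 8.96, 8.85 and 9.02 in wild type, 8.52, 8.65 and 8.52 in mutant and 8.75, 8.52 and 8.82 in rescue. It fell by 0.38 ± 0.11 (limma adjusted p = 0.0299), a call lost with quantile normalization repeated (-0.31, 0.056) and on leaving out Clock mutant replicate 1 (-0.36, 0.0866) or 3 (-0.36, 0.0858), or wild type replicate 1 (-0.37, 0.078) or 3 (-0.34, 0.106). The coenzyme A carrier gene Slc25a42 went the other way, with 7.18, 7.21 and 6.92 in wild type, 7.54, 7.56 and 7.47 in mutant and 7.28, 7.24 and 7.51 in rescue. It rose by 0.42 ± 0.11 (adjusted p = 0.0224), a call lost with each array centred on its median (0.34, 0.051) and on leaving out wild type replicate 3 (0.33, 0.106), Clock mutant replicate 1 (0.41, 0.0647) or 2 (0.40, 0.058). The S-adenosylmethionine carrier gene Slc25a26 was at 0.29 (adjusted p = 0.0842), the NAD carrier gene Slc25a51 at 0.07, and the peroxisomal Slc25a17 at 0.00 with a 95% interval of -0.22 to 0.21.

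Iron and glutathione carriers gave 2 falls and no rise among 4, while 9.02% of all genes were called lower and 6.37% higher. Slc25a37, mitoferrin 1, which feeds iron to heme synthesis in red cell precursors, was 8.49, 8.09 and 8.24 in wild type, 7.85 on each mutant array and 8.20, 7.92 and 7.95 in rescue. Slc25a37 fell by 0.43 ± 0.12 (limma adjusted p = 0.028), a call lost without wild type replicate 1 (-0.32, 0.119) or 3 (-0.44, 0.0662) or any Clock mutant replicate (-0.43 to -0.42, 0.0618 to 0.0694). None of the 3 measured red cell markers was called in mutant against wild type (limma; 1 had an unadjusted p under 0.05), with a mean level of 6.34 to 6.51 in wild type and 6.48 to 6.55 in mutant. The other mitoferrin gene, Slc25a28, was at 0.16 (interval -0.06 to 0.38).

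Slc25a40, a glutathione carrier, was 6.83, 6.81 and 6.80 in wild type, 6.57, 6.17 and 6.42 in mutant and 6.53, 6.58 and 6.53 in rescue. It fell by 0.43 ± 0.11 (limma adjusted p = 0.0177), without a call when both of its probe sets were averaged (-0.36, 0.0695), in its dimmer probe set alone (-0.29, 0.285; this alternative was added with the data in view), or on leaving out Clock mutant replicate 2 (-0.32, 0.0648) or wild type replicate 1 (-0.42, 0.0517) or 3 (-0.44, 0.0515). Its relative Slc25a39, the main glutathione importer, was at 0.35 ± 0.12 (adjusted p = 0.0734), with no overlap between wild type (8.43, 8.37 and 8.20) and mutant (8.59, 8.72 and 8.73).

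Among 7 orphan and outer membrane members 1 rose, 1 fell and 5 did not pass (28.6% called, against 15.4% of all genes). Slc25a46 sits in the outer membrane and bears on mitochondrial fission and lipid traffic. It was 9.41, 9.74 and 9.64 in wild type, 8.91, 8.99 and 8.96 in mutant and 9.12, 9.30 and 9.38 in rescue. The 3 groups did not overlap. Slc25a46 fell by 0.64 ± 0.11 in mutant (limma adjusted p = 0.0018, called in all 18 alternatives), and rescue lay 0.32 ± 0.11 above mutant (adjusted p = 0.13) and at -0.33 ± 0.11 against wild type (adjusted p = 0.175), neither called. The orphan gene Slc25a34 was 6.06, 5.86 and 5.88 in wild type, 6.25, 6.38 and 6.39 in mutant and 6.02, 6.23 and 6.07 in rescue. It rose by 0.41 ± 0.11 (adjusted p = 0.0176), a call lost with the gene span trend removed (0.30, 0.0723) and on leaving out Clock mutant replicate 3 (0.38, 0.0604) or wild type replicate 2 (0.37, 0.0614) or 3 (0.38, 0.0683).

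Carriers of carnitine, choline and pyrimidine nucleotides and the relatives of the uncoupling proteins gave no call in mutant against wild type; none of these 7 genes had an unadjusted p under 0.05 there by limma. The carnitine-acylcarnitine carrier gene Slc25a20, required for oxidation of long-chain fatty acids, was at 0.29 (interval -0.02 to 0.59), and the choline carrier gene Slc25a48 at -0.04. The pyrimidine nucleotide carrier genes Slc25a33 and Slc25a36 were at -0.21 and -0.08, and Slc25a14, Slc25a27 and Slc25a30, relatives of the uncoupling proteins, at 0.14, -0.05 and -0.13. The other probe set of Slc25a36, of similar level, gave -0.31 ± 0.15 and was not called either (limma adjusted p = 0.189). The orphans Slc25a35, Slc25a43, Slc25a45, Slc25a47 and Slc25a53 ran from -0.01 to 0.22.

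Rescue livers differed from mutant livers in 3 carrier genes: Slc25a4 and Slc25a24 rose and Slc25a10 fell. These are 6.5% of the family, against 3.81% of all genes tested (2.61% higher and 1.2% lower). Rescue and mutant values did not overlap in 16 members (34.8%, against 25.7% of all genes), 5 higher and 11 lower (all genes 11.8% and 14%), and the median difference was -0.07 in the family and -0.05 over all genes. Unadjusted p was under 0.05 in 16 members. Without Clock mutant replicate 1 or without Clock rescue replicate 2 no member was called by limma, though 16 and 11 had an unadjusted p under 0.05. The count was 1 without Clock mutant replicate 2, without Clock rescue replicate 3, with the 6 arrays alone and with the gene span trend removed, 2 on leaving out Clock mutant replicate 3 or wild type replicate 1 or 2, and 6 with quantile normalization repeated (2 rose and 4 fell). Without Clock rescue replicate 1 it was 3 as well, of which 1 was among those named.

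The largest uncalled differences of this comparison were in Slc25a30 and Slc25a47. Slc25a30, a relative of the uncoupling proteins known from kidney, was 7.12, 7.73 and 7.89 in wild type, 7.42, 7.05 and 7.87 in mutant and 7.60, 8.60 and 8.44 in rescue. It had the widest spread within groups of all members (SD 0.46), and its 0.77 ± 0.26 above mutant was not called (limma adjusted p = 0.106; called without Clock rescue replicate 1, 1.08 and 0.0301, or with a block for replicate number, 0.0456). Slc25a47, a liver-enriched orphan carrier, was 8.44, 8.50 and 8.17 in wild type, 8.67, 8.43 and 8.54 in mutant and 8.35, 7.33 and 8.0 in rescue. Clock rescue replicate 2 stood far below the other arrays. The difference from mutant was -0.65 ± 0.19 (adjusted p = 0.0728; called in 4 of 18 alternatives, among them -0.88 and 0.0238 without Clock rescue replicate 1). Slc25a44 was 7.68, 7.62 and 7.65 in mutant and 7.45, 7.16 and 7.37 in rescue, without overlap and without a call (-0.32 ± 0.11, adjusted p = 0.109; called with quantile normalization repeated, -0.37 and 0.049).

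Rescue livers differed from wild-type livers in 2 carrier genes, Slc25a32 and Slc25a4, both lower in rescue. These are 4.3% of the family, against 2.28% of all genes tested (0.928% higher and 1.35% lower). Rescue and wild-type values did not overlap in 11 members (23.9%, against 19.5% of all genes), 6 higher and 5 lower (all genes 8.95% and 10.5%), and 8 members had an unadjusted p under 0.05. Only Slc25a32 was called without any 1 of 7 single arrays, which were all arrays except Clock mutant replicates 1 and 3, and also with quantile normalization repeated. The members next in order of p were Slc25a46, Slc25a30 (0.64 ± 0.26, limma adjusted p = 0.262), Slc25a47 (-0.47, 0.268), Slc25a40 (-0.27, 0.274), Slc25a16 (-0.24, 0.318) and Slc25a27 (0.24, 0.329; 6.09, 6.09 and 5.91 in wild type, 6.40, 6.31 and 6.10 in rescue).

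**Figure D3:**
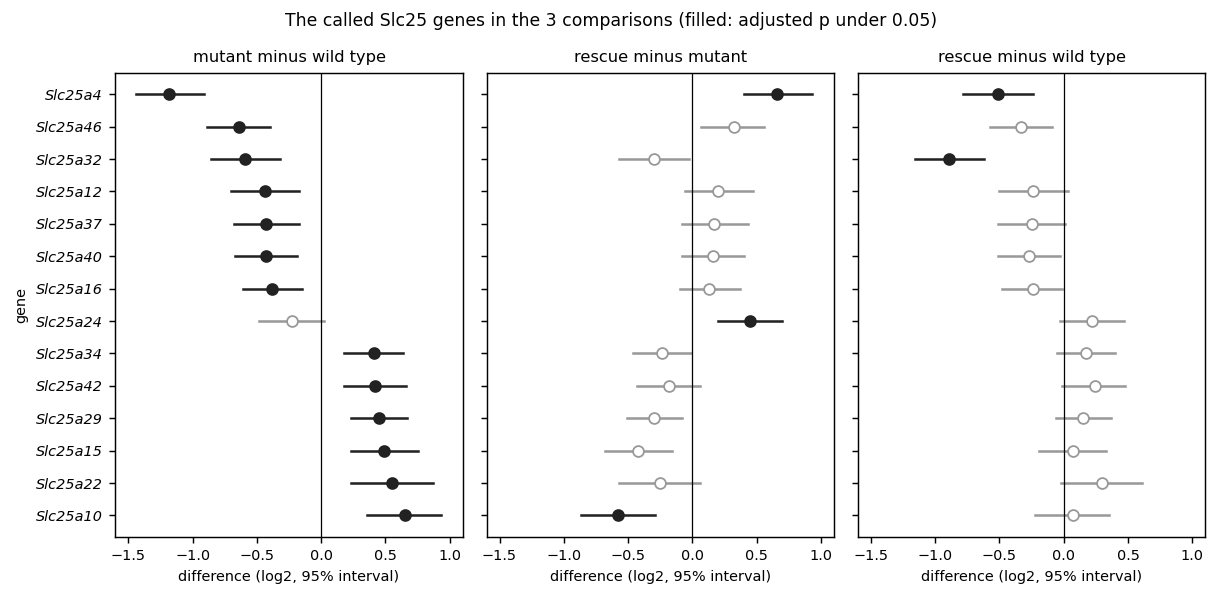
Differences (log2, horizontal axes) with unadjusted 95% intervals of the 14 called Slc25 genes in the 3 comparisons, which share arrays; filled points are called at an adjusted p under 0.05. Slc25a4 is filled in each panel, at -1.18, 0.66 and -0.51, and Slc25a32 is filled against wild type only, at -0.59 and -0.89.

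The 3 comparisons share arrays pairwise, so their values are set side by side and not correlated. An F test across the groups called 9 members (19.6%, against 12.9% of all genes): Slc25a4, Slc25a10, Slc25a15, Slc25a24, Slc25a29, Slc25a32, Slc25a34, Slc25a40 and Slc25a46. It called 4 on leaving out Clock mutant replicate 2 or wild type replicate 3, 5 on leaving out Clock mutant replicate 1 or wild type replicate 2, 14 with a trended and robust prior and 15 without the dimmest 40% of genes. The 13 genes called in mutant against wild type were chosen on the same wild-type arrays that rescue is compared with. Their difference between rescue and wild type ran from -0.89 (Slc25a32) to 0.30 (Slc25a22). It was called in Slc25a4 and Slc25a32 alone (2.28% called over all genes). A missing call is not a return to the wild-type level. Among the uncalled ones, rescue and wild type did not overlap in Slc25a16, Slc25a29, Slc25a40, Slc25a42 and Slc25a46, and overlapped in the others.

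Genes around the carriers were followed in lists. Of 4 measured family members with another symbol, 1 rose in mutant liver and 3 did not pass (25.0% called, against 15.4% of all genes). Mtch1, an outer membrane relative, rose by 0.60 ± 0.15 (limma adjusted p = 0.0164). The call was lost on leaving out wild type replicate 3, Clock mutant replicate 1 or Clock mutant replicate 3. Of 15 measured genes for import of carriers into the inner membrane 2 rose, 1 fell and 12 did not pass (20.0% called, against 15.4% of all genes): Timm13, a chaperone of the intermembrane space, rose by 0.46 ± 0.13, Tomm5, a small subunit of the outer membrane pore complex, by 0.40 ± 0.12, and the receptor gene Tomm20 fell by 0.50 ± 0.15. All 3 calls were lost on leaving out wild type replicate 2 or Clock mutant replicate 3, and both rises with each array centred on its median, with the gene span trend removed or on leaving out wild type replicate 3. Without Clock mutant replicate 1 a single rise was called. Of 18 other mitochondrial membrane transporters 1 rose, Vdac1, the outer membrane channel that passes the same metabolites (0.41 ± 0.11, limma adjusted p = 0.0224), which is 5.6% of the list. That call was lost with each array centred on its median and on leaving out Clock mutant replicate 1, wild type replicate 2 or wild type replicate 3. These lists had medians of 0.09, 0.06 and 0.01, beside 0.07 over all genes.

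Enzymes on either side of the shuttles included 3 rises and no fall among 22 measured genes in mutant liver, with a median of 0.19 beside 0.07 over all genes. The share called, 13.6%, was below the 15.4% of all genes, and 1 gene was called with each array centred on its median or on leaving out wild type replicate 2 or wild type replicate 3. Citrate synthase (Cs) rose by 0.58 ± 0.12 (limma adjusted p = 0.00433), the cytosolic aspartate aminotransferase gene Got1 by 0.58 ± 0.17 (adjusted p = 0.0318) and the mitochondrial malate dehydrogenase gene Mdh2 by 0.48 ± 0.13 (adjusted p = 0.0273). Got1 and Mdh2 belong to the malate-aspartate shuttle with Slc25a11, Slc25a12 and Slc25a13. Got1 was 11.90, 11.29 and 11.29 in wild type, 12.29, 11.90 and 12.04 in mutant and 11.69, 11.28 and 11.68 in rescue; both groups held a value of 11.90. In rescue against mutant, 1 of the 22 fell, the urea cycle gene Asl (-0.58 ± 0.13, adjusted p = 0.0267; lost on leaving out Clock mutant replicate 1 or 2 or Clock rescue replicate 2 or 3), and none of the other 3 lists held a call by limma (unadjusted p was under 0.05 in 2, 7 and 2 of their genes). In rescue against wild type the glycerol phosphate shuttle gene Gpd1 rose (0.62 ± 0.15, adjusted p = 0.0462; lost in at least 8 of 18 alternatives, among them centring, removal of the span trend, and leaving out any wild-type array, Clock mutant replicate 3 or Clock rescue replicate 1 or 3), and no gene of the other 3 lists passed by limma (0, 4 and 4 with unadjusted p under 0.05).

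Across all genes, the mutant minus wild-type difference was smaller at longer genomic span, with bin medians of 0.11 to 0.13 in the 4 shortest of 10 bins and -0.04 to 0.03 in the 4 longest, so the span of the carriers is given beside their changes. The median span (from the reference gene table) was 22.0 kb in the family and 17.7 kb over 19855 genes, 9.7 kb in the 6 carriers that rose and 30.4 kb in the 7 that fell. The rank correlation (Spearman) of span with the mutant minus wild-type difference, across genes that share the same 9 arrays, was -0.37 over the 46 carriers and -0.24 over all genes, as a description. Slc25a4, at 3.9 kb, is the shortest of the 7. With the span trend removed, 5 carriers rose and 7 fell, 12 of them among the 13. None of the 46 genes lay within the 100 tested genes on either side of Clock.

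**Figure D4:**
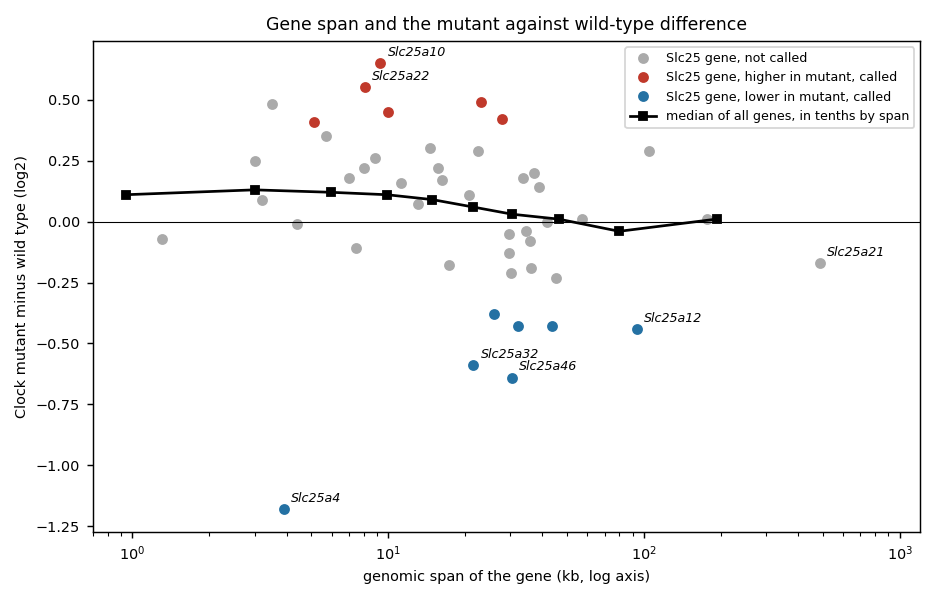
Clock mutant minus wild-type difference (log2, vertical axis) of the 46 Slc25 genes against the genomic span of the gene (kb, log axis); black squares are medians of all genes in equal bins of span. The medians lie between -0.04 and 0.13, and Slc25a4 (3.9 kb, -1.18) is under the line at short span.

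Promoter windows from RefSeq (GRCm38.p6, 250 bases before to 50 after a start) were found for 36 members, 11 of the 14 called ones. They were searched on both strands for the E-box CACGTG, which CLOCK and BMAL1 bind, its variant CACGTT, the D-box TTATGTAA and the nuclear receptor motif AGGTCA. The E-box and its variant share letters, but no member's window held more than 1 of the 4 motifs. The E-box was in 7 of 36 members (Slc25a1, Slc25a13, Slc25a14, Slc25a15, Slc25a31, Slc25a33 and Slc25a36; 19.4%, against 8.1% of all genes with a window), and of these Slc25a15 was the 1 called, as higher in mutant. CACGTT was in 3 (8.3%, against 5.4%), AGGTCA in 4 (11.1%, against 18.1%) and the D-box in 0 of 36 (all genes 1.1%). The 250 bases before the start are shown for Slc25a4 and Slc25a10, called both in mutant against wild type and in rescue against mutant, Slc25a15, which holds the E-box, its first base at -77 from the start, in 1 of its 2 windows, and Slc25a34, the called member with AGGTCA. They read 5′ to 3′ on the gene's strand, with motif letters in capitals (for Slc25a34 TGACCT, which is AGGTCA on the other strand). The windows of Slc25a4 and Slc25a10 held none of the 4 motifs.
Slc25a4 (chr8:46211063-46211312, minus strand): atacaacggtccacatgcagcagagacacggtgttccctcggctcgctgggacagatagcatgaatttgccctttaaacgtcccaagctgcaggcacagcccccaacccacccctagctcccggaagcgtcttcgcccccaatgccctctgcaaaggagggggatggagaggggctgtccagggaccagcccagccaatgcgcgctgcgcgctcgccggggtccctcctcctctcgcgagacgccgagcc
Slc25a10 (chr11:120491587-120491836, plus strand): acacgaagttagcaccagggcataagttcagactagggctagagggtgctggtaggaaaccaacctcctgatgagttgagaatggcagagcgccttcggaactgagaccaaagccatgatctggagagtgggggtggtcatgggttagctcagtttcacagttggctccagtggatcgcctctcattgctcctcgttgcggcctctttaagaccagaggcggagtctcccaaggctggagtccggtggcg
Slc25a15 (chr8:22398278-22398527, minus strand): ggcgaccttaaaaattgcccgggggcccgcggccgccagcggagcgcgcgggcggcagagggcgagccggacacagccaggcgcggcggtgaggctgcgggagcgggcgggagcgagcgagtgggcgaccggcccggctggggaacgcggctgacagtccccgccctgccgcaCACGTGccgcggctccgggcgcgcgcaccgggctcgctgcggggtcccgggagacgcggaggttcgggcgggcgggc
Slc25a34 (chr4:141623835-141624084, minus strand): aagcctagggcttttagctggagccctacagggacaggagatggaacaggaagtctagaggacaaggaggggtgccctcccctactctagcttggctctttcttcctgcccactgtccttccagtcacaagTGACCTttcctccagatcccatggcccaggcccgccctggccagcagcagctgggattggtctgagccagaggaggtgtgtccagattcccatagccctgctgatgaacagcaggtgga
The 250 bases of Slc25a15 are 80.4% G and C with 43 CpG pairs, those of Slc25a4 64.8% with 18, of Slc25a34 58.4% with 1 and of Slc25a10 56.0% with 9, beside medians of 52.4% and 6 over all windows.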

How the data were processed

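The authors deposited log2 values for each probe set, made with RMA in Affymetrix Expression Console, per the submitters' processing notes, which name no version. RMA normalizes arrays to each other, so a shift common to most genes can be hidden; the median mutant minus wild-type difference of all genes was 0.073, 0.044 with quantile normalization repeated and -0.004 with arrays centred. The base of the log was inferred from a highest value of 13.86. Of 35556 probe sets, 21789 had a single symbol in the platform annotation, for 19938 genes; the 46 Slc25 genes had 50 probe sets. Spans and names came from the RefSeq gene table.

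All 9 arrays, grouped by their titles, entered 1 linear model (limma 3.58.1, R 4.3.3; 6 residual and 8.475 prior degrees of freedom). A gene was called at a Benjamini-Hochberg adjusted p under 0.05. The model was tested on simulated data with noise independent between genes, which does not cover shifts common to many genes on 1 array. Members, lists and tests were chosen with earlier results of these data known. Every called member is described, and the 8 of smallest p where fewer were called. Alternatives were 9 changes of processing and each array left out. Olfactory receptor genes gave the background level. Motifs were searched with Python 3.11.15, and figures drawn with matplotlib 3.10.9.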

Additional observations from a re-analysis of the deposited data

How the results depend on the processing

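None of 29 followed member results changed direction in any alternative. Of the 13 calls in mutant against wild type, 5 (Slc25a4, Slc25a10, Slc25a29, Slc25a32 and Slc25a46) held in all 18. With 1 array left out, the count of called carriers ran from 6 to 14 in mutant against wild type, 0 to 3 in rescue against mutant, 1 to 2 in rescue against wild type and 4 to 9 across the 3 groups. Across the 3 groups 15 were called without the dimmest 40% of genes and 14 with a trended and robust prior. In rescue against mutant 6 were called with quantile normalization repeated, and 1 with the 6 arrays alone or the gene span trend removed. In rescue against wild type 1 was called with quantile normalization repeated. The cause was not tested. Replicate numbers were not taken as pairs, since the labels tie them to nothing shared and not every correlation of same-numbered arrays' deviations from their group means was over 0.1 (-0.111 to 0.191). As a hint from the data alone, 6 of 9 arrays were closest to one of their own number. With the replicate number as a block, 14, 4 and 1 carriers were called in the 3 comparisons and 10 across groups; Slc25a4 in rescue against wild type (adjusted p = 0.0537) and Slc25a24 in rescue against mutant (0.0578) were not, while Slc25a30 in rescue against mutant was (0.77, 0.0456). Of 216 counts for the 4 lists under alternatives, 58 differed over 1.5-fold. With 3 arrays per group, intervals of 21 of 46 carriers lay within 0.5 either side of 0 in mutant against wild type.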

Other observations

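Single arrays shifted the carriers together within their groups. In the rescue group 31 of 46 members had their lowest value on Clock rescue replicate 2, against 33.1% of all genes, and the median carrier there was 0.13 below the mean of the other rescue arrays (-0.13; all genes 0.02). In wild type 28 members had their highest value on replicate 1 (32.7% of all genes) and 26 their lowest on replicate 3 (36.5%), with medians of 0.12 and -0.10 against the other arrays. The mutant arrays differed less, with medians of 0.01, 0.05 and 0.00. The median SD within groups was 0.16 in the family and 0.14 over all genes, from 0.08 in Slc25a17, Slc25a29 and Slc25a41 to 0.46 in Slc25a30.

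The wide rescue spread was largest in Slc25a23, an ATP-Mg/phosphate carrier gene, with 9.64, 9.10 and 10.25 on the rescue arrays against 9.49, 9.51 and 9.45 on the mutant ones. Slc25a25, of the same kind, was 7.91, 7.05 and 7.76 in rescue. Both are known to respond to calcium, and neither passed in any comparison.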
